A study of Homo sapiens with 4 samples.

Results

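Protocadherins are the largest branch of the cadherin superfamily of calcium-dependent adhesion proteins, and they were examined here in a human breast cancer cell line given the forkhead transcription factor FOXC1. Members were chosen by gene symbol: array probe sets whose only annotated symbol begins with PCDH, with the probe set of highest mean signal kept for each gene. This gave 42 genes from 43 probe sets, of 18417 genes with a symbol of their own on the array. They comprised 12 alpha, 18 beta and 1 gamma gene of the clustered protocadherins, and 11 non-clustered genes. All symbols stood for protein-coding genes except the pseudogenes PCDHB17P and PCDHB18P.

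The cells were MDA-MB-231, an established breast cancer line of mesenchymal, basal-like character that lacks oestrogen receptor, progesterone receptor and HER2 amplification. They were transfected with a FOXC1 plasmid or with the control vector using Lipo2000, a lipid reagent, and all were grown in the same serum-containing medium. RNA from 2 FOXC1 and 2 vector samples, labelled biological replicates, was put on 4 Affymetrix whole-transcript gene arrays, and the authors' PLIER signals on a linear scale were used. The promoter that drives the plasmid, the length of expression and the use of pools or clones are not stated in the labels. Since separate cultures are not described, p-values measure only the spread between these samples. The FOXC1 transcript was not analysed here, and the group labels therefore had no check from it. The median signal of an array lay between 488.7 and 511.5, and log2 signals correlated at 0.997 within each group and at 0.992 between groups over the array's probe sets, a description only since probe sets are not replicates. Of the 6 genes listed as present in this line, the mesenchymal marker VIM was bright (mean signal 16879 in vector and 16248 in FOXC1 cells). S100A4 was the dimmest of them, with 919 in vector and 378 in FOXC1 cells (log2 -1.26), the latter below the median of brightness (832). The receptor gene ESR1 (245 and 267) and the epithelial cadherin CDH1 (274 and 280) were dim. Of the 6 genes listed as low in this line, PGR was dim too, but ERBB2 (1285 and 1171), EPCAM (1010 and 670) and GATA3 (898 and 795) lay above the median of brightness. All 8 luminal epithelial markers fell in FOXC1 cells (median log2 change -0.965), the summed signal of that list being 28050 and 28480 in vector and 21090 and 20670 in FOXC1 arrays. Their part in the protocadherin changes was not tested. Of 7 measured neuronal markers SYT1 fell and SNAP25 rose, and of 6 fibroblast markers DCN rose, of 4 leukocyte markers PTPRC rose and of 4 endothelial markers PECAM1 fell. The parts of these genes were not tested either, and no marker had a signal under 16.

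The clustered protocadherins lie side by side in alpha, beta and gamma arrays on the long arm of chromosome 5. Each alpha and gamma gene has its own first exon and promoter and is spliced to constant exons shared by its array, while a beta gene is a single exon with no shared part. The proteins are best known from neurons, where CTCF and cohesin join chosen promoters to distant enhancers, and where combinations of these proteins label single cells. Non-clustered protocadherins stand alone or in loose groups elsewhere in the genome and act in cell sorting and migration, and several have been described as silenced by promoter methylation in tumours.

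The promoters of the beta genes carry a common element, shown here because it is shared by genes that moved and by genes that did not. RefSeq promoters (GRCh38.p14) were at hand for 34 of the 42 members, and the 250 bases before each start were searched on both strands. The letters CGCT, the core of the element known from clustered protocadherin promoters, occurred in 24 of 25 clustered and 8 of 9 non-clustered promoters, against 64.3% of 27305 promoters of all genes. The longest run shared by the windows of PCDHB2 and PCDHB16 holds that core and has 13 bases, GGTGGCGCTGCAG, a motif chosen after the sequences were read. It occurred in 9 of 14 beta promoters, in 0 of 10 alpha and 0 of 9 non-clustered promoters, and in 13 of the 27305 promoters in all (0.0476%). Its first 9 bases, GGTGGCGCT, occurred in 12 of 14 beta promoters and in 0.428% of all promoters. The 9 windows of 28 bases on the plus strand of chromosome 5, with the 13 bases in capitals, are as follows.
PCDHB2, chr5:141094543-141094570, gene lower in FOXC1 cells: gaagagacgcggGGTGGCGCTGCAGcct
PCDHB16, chr5:141182309-141182336, gene lower: gtgagaacgcgtGGTGGCGCTGCAGgtt
PCDHB5, chr5:141135178-141135205, gene lower: attaggacgcctGGTGGCGCTGCAGgct
PCDHB4, chr5:141121722-141121749, gene higher: atcaagacgcagGGTGGCGCTGCAGgct
PCDHB9, chr5:141187073-141187100, did not pass: tggaagccacaaGGTGGCGCTGCAGact
PCDHB10, chr5:141192298-141192325, did not pass: tggaggccacacGGTGGCGCTGCAGgct
PCDHB12, chr5:141208642-141208669, did not pass: gtggagacgcgtGGTGGCGCTGCAGgat
PCDHB13, chr5:141213864-141213891, did not pass: gtgaggacgcgtGGTGGCGCTGCAGgat
PCDHB15, chr5:141245313-141245340, did not pass: aagacaacgcatGGTGGCGCTGCAGgct
The element began between 16 and 84 bases before the start. Of these 9 genes 3 fell, 1 rose and 5 did not pass, while 5 of all 18 beta genes and 31.4% of all genes were called. PCDHB2 and PCDHB16 carry the element by choice, since it was defined from these 2 beta genes with the largest falls. The beta genes searched that lack it, PCDHB1, PCDHB3, PCDHB7, PCDHB8 and PCDHB14, did not pass. Of these, PCDHB3, PCDHB7 and PCDHB14 carry its first 9 bases. PCDHB11, which fell, had no promoter at hand and was not searched. Because called genes defined the element, calls among genes with and without it cannot be set against each other. A link between the element and the changes was not tested.

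Forkhead factors are known to bind sites with the letters GTAAACA and, for FOXC1, GTAAATA. The former occurred in 0 of 34 member windows (2.98% of all promoters) and the latter in 1, that of PCDHB12 (2.47% of all promoters), which did not pass the test. The TATA box letters TATAAA occurred in 5 of 34 (11.1% of all promoters). These matches describe the letters of the windows and no more. The whole 250 bases before PCDHB2, the member with the largest fall, and before PCDH18, the non-clustered gene with the largest fall, are shown so that the spacing of the element and of the bare CGCT can be read.
PCDHB2, chr5:141094365-141094614, plus strand, 13-base element in capitals: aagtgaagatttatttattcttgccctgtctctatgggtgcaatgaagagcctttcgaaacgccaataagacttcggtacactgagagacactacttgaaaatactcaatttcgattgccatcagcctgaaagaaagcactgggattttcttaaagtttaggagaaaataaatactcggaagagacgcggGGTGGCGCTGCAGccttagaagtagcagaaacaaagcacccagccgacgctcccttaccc
PCDH18, chr4:137532495-137532744, minus strand, CGCT on either strand in capitals: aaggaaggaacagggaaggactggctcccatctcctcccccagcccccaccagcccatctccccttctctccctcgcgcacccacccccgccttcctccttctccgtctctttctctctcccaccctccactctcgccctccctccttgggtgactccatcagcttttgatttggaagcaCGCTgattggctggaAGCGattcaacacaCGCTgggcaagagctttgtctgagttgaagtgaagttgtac

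The comparison asked which protocadherins differ between FOXC1 and vector cells, and whether clustered and non-clustered genes differ in this. Signals were compared as log2(signal + 16) with limma, and a gene was called at a Benjamini-Hochberg adjusted p under 0.05. The adjustment ran over all 21214 probe sets with at least 1 symbol, here called the named probe sets. Of the 42 genes 12 were called, 5 higher and 7 lower in FOXC1 cells. Among all genes 31.4% were called, 15.9% higher and 15.5% lower, so the members' share of 28.6% was near the background. The protocadherins were dim, however. The higher group mean lay below the 25th percentile of the named probe sets (291) for 18 members, between it and the median (832) for 23, and above the median for PCDH1 alone. Among the 9519 genes no brighter on average than PCDH1, 16.1% were called. Called with a log2 change of at least 0.5 were 3 members, PCDHB2, PCDHB16 and PCDH18, all lower, against 4.07% of all genes in either direction and 2.83% lower; among genes no brighter than PCDH1 the share in either direction was 3.97%.

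The calls rest on 2 arrays per group: there were 6 without vector replicate 2, 8 without FOXC1 replicate 2 and 15 without FOXC1 replicate 1. Scaling moved the balance of directions. Over all genes 2925 were higher and 2852 lower. After quantile normalization 1 member was higher and 7 lower, against 2575 and 3220 of all genes. With arrays centred on the median of all rows the members numbered 4 and 7, against 1739 and 3396 of all genes. With centring on named probe sets they numbered 4 and 5, against 3758 and 2543. Because the signals come from whole cultures, fewer cells with a transcript and less transcript per cell cannot be told apart.

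**Figure D1:**
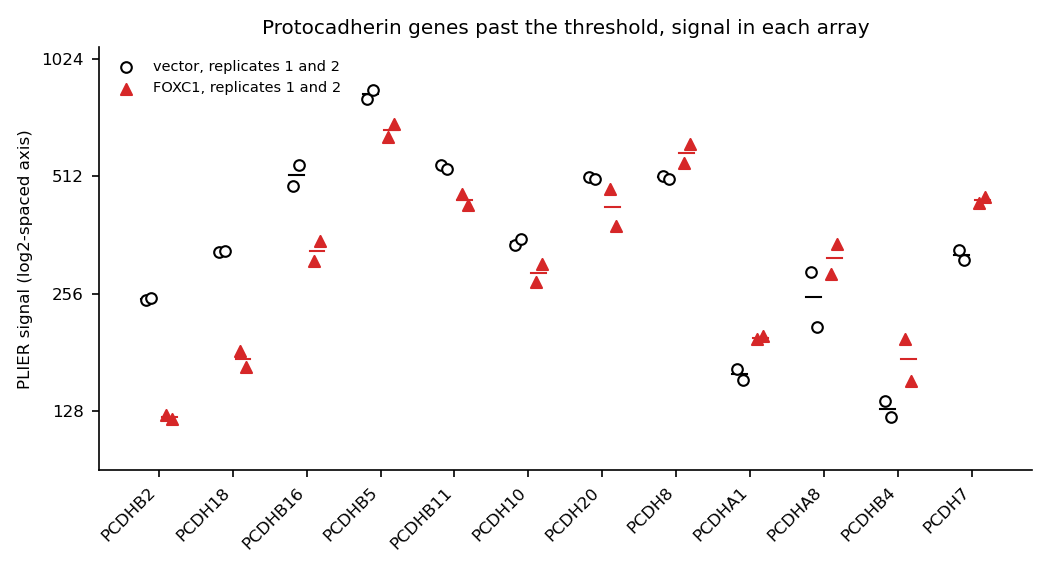
Signal of the 12 called protocadherin genes in each array, on a log2-spaced axis, ordered by change; open circles are the 2 vector arrays, red triangles the 2 FOXC1 arrays, and short lines the group means. PCDHB2 and PCDH18 show the widest gaps, and PCDHA8 is the only gene whose groups overlap.

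Among clustered genes 7 of 31 were called (22.6%), 3 higher and 4 lower, with a median log2 change of 0.09. Among non-clustered genes 5 of 11 were called (45.5%), 2 higher and 3 lower, with a median of -0.08. The median over all genes was 0.03. Called were 31.4% of all genes and 16.1% of those no brighter than PCDH1. Below the 25th percentile of brightness lay 14 of the 31 clustered and 4 of the 11 non-clustered genes. Without FOXC1 replicate 1 the clustered count was 11 and the median of the non-clustered genes turned to 0.07, and the non-clustered count was 2 without either vector replicate and 3 without FOXC1 replicate 2. The changes of the called genes ranged from -0.92 to 0.38 in the clustered and from -0.86 to 0.45 in the non-clustered class, so neither class moved as a block. No test of the classes against each other was made.

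**Figure D2:**
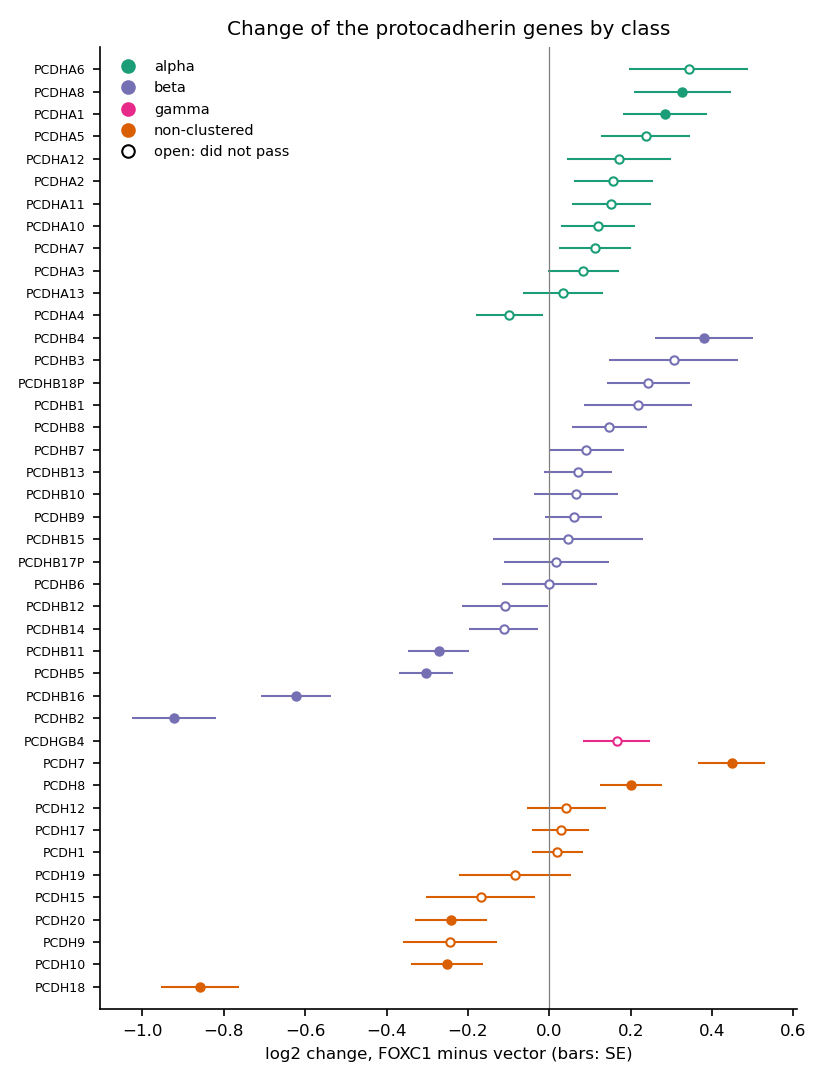
Log2 change of all 42 protocadherin genes, FOXC1 minus vector, with SE from limma, grouped by class and ordered by change; filled points passed the threshold. Beta and non-clustered genes spread to both sides of 0, and 11 of 12 alpha genes lie to the right of it.

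The beta genes, adhesion proteins without a shared cytoplasmic part, held 5 of the 7 calls among the clustered members, 4 lower and 1 higher. They also made up 18 of the 31 clustered members. The share of beta genes called was 27.8%, against 31.4% of all genes and 16.1% of genes no brighter than PCDH1. PCDHB2 gave signals of 247 and 249 in vector and 125 and 122 in FOXC1 cells. The groups were far apart, and replicates lay close together. It fell 1.90-fold (log2 -0.92 ± 0.10 SE, limma adjusted p = 3.91e-07). PCDHB16, which lies among the beta genes some way along the array, gave 484 and 548 in vector and 310 and 350 in FOXC1 cells. The groups were well apart, and it fell 1.54-fold (log2 -0.62 ± 0.09 SE, limma adjusted p = 8.43e-06).

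Smaller falls were seen in 2 further beta genes. PCDHB5 had signals of 810 and 854 in vector and 646 and 698 in FOXC1 cells, without overlap, and fell 1.23-fold (log2 -0.30 ± 0.07 SE, limma adjusted p = 0.00117). PCDHB11 had 548 and 534 in vector and 460 and 432 in FOXC1 cells, and fell 1.21-fold (log2 -0.27 ± 0.08 SE, limma adjusted p = 0.00823). PCDHB11 no longer passed when vector replicate 1 was left out (adjusted p = 0.0924). PCDHB2, PCDHB16 and PCDHB5 were called in every alternative fit that kept them. PCDHB2 lay below the 25th percentile of brightness, so both brightness filters dropped it and 14 fits kept it.

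PCDHB4 alone among the beta genes rose. Its signals were 135 and 123 in vector and 196 and 153 in FOXC1 cells, all below the 25th percentile of brightness. The groups did not overlap, but the FOXC1 arrays differed more from each other than the nearer of them did from the vector arrays. The rise was 1.30-fold (log2 0.38 ± 0.12 SE, limma adjusted p = 0.0198), and the call was lost without FOXC1 replicate 1 (log2 0.22, adjusted p = 0.245) and without vector replicate 2 (0.11). PCDHB3, its neighbour on the side of PCDHB2, had a similar estimate but did not pass, with 80.8 and 52.4 in vector and 74.0 and 96.4 in FOXC1 cells, which overlap (log2 0.31 ± 0.16 SE, limma adjusted p = 0.158).

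The remaining 12 beta genes lay between log2 changes of -0.11 and 0.24 and did not pass, the top of that range being the pseudogene PCDHB18P (171 and 160 in vector, 198 and 199 in FOXC1 cells, adjusted p = 0.0802 in limma). Of the 18 beta genes 5 had both FOXC1 arrays above both vector arrays and 5 had both below, against 63.5% of all genes without overlap in either direction. The precision of these null results differed with brightness. PCDHB9, beside PCDHB16, had 536 and 547 in vector and 558 and 572 in FOXC1 cells, with a 95% interval of the log2 change from -0.09 to 0.21. PCDHB15, the dimmest member, had 20.8 and 31.7 against 19.9 and 36.1, with an interval from -0.34 to 0.43. Beta genes resemble each other in sequence, so a probe set may also bind related transcripts, which would mix their values.

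The falls did not form a run along the chromosome. PCDHB2 and PCDHB16 are separated by 7 beta genes, of which 1, PCDHB5, fell and 1, PCDHB4, rose. PCDHB1 and PCDHB3 on either side of PCDHB2 had log2 changes of 0.22 and 0.31, and PCDHB8 and PCDHB9 on either side of PCDHB16 had 0.15 and 0.06, and none of the 4 passed. Of the 8 beta genes after PCDHB16 only PCDHB11 fell. SLC25A2 and TAF7, which stand between the beta and gamma arrays, had log2 changes of 0.05 each and did not pass. Of 28 measured genes around the clusters, from a list of neighbours, 7 rose and 3 fell (35.7% called, against 31.4% of all genes). Of the 28, 21 lay above the median of brightness, where 48.2% of genes were called. The growth factor gene FGF1 (log2 0.38) had the largest change. The list's median log2 change was -0.01, against 0.03 for all genes.

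**Figure D3:**
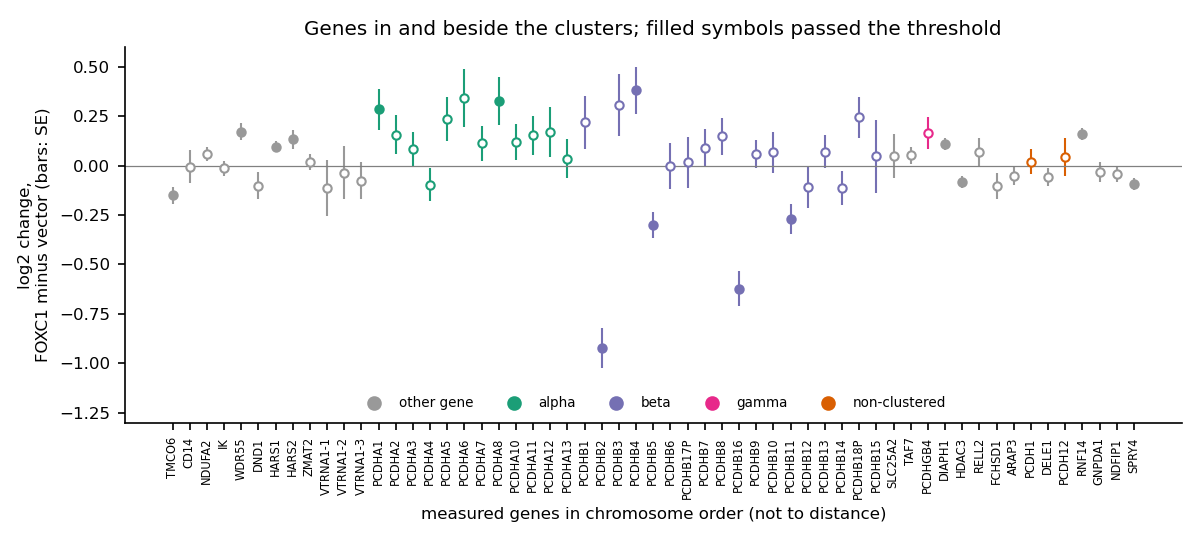
Log2 change, FOXC1 minus vector, with SE, for measured genes in their order along chromosome 5 from 12 genes before the alpha array to 12 genes after PCDHGB4; filled points passed the threshold, and distance is not to scale. PCDHB2 at -0.92 and PCDHB16 at -0.62 stand below their nearest neighbours, which did not pass and have estimates between 0.06 and 0.31.

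The alpha genes, whose proteins share a cytoplasmic domain, had small positive estimates. The median log2 change was 0.155 and 11 of 12 were positive (10 of 12 after quantile normalization, with a median of 0.104), but only PCDHA1 and PCDHA8 passed, and neither did after quantile normalization. Positive estimates were also the more frequent among all genes (10841 of 18417). Among genes no brighter than PCDH1 6134 of 9519 were positive, with a median of 0.05. PCDHA1 had signals of 164 and 154 in vector and 195 and 199 in FOXC1 cells, without overlap, a 1.22-fold rise (log2 0.28 ± 0.10 SE, limma adjusted p = 0.0416). PCDHA8 had 291 and 210 in vector and 287 and 344 in FOXC1 cells, so that vector replicate 1 lay above FOXC1 replicate 1, a 1.25-fold rise (log2 0.33 ± 0.12 SE, limma adjusted p = 0.0429). Both calls were lost without vector replicate 2 and without FOXC1 replicate 2, where the PCDHA8 log2 change was 0.11 and 0.20. PCDHA1 also lost its call without either of the other arrays. PCDHA6, with the largest estimate of the class (166 and 126 against 153 and 229, log2 0.34 ± 0.15 SE), did not pass (limma adjusted p = 0.0839). The other 8 alpha genes without a call, PCDHA10 apart, ranged from -0.10 (PCDHA4) to 0.24 (PCDHA5).

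The alpha probe sets varied together between replicates of the same group. Vector replicate 2 was the lowest and FOXC1 replicate 2 the highest of the 4 arrays for 8 of 12 alpha genes, against 4 of 18 beta genes, 3 of 11 non-clustered genes and 13.8% of all genes. PCDHA10, the brightest alpha gene, shows it, with 511 and 430 in vector and 469 and 556 in FOXC1 cells (log2 0.12 ± 0.09 SE, limma adjusted p = 0.358). For PCDHA10 the replicates of each group thus lay farther apart than the group means (471 in vector and 513 in FOXC1 cells). For PCDHA1 they lay closer together than the group means (159 and 197). The median alpha change was 0.00778 without FOXC1 replicate 2 and 0.0988 without vector replicate 2, with 0 genes called in each case by limma, and 0.297 without FOXC1 replicate 1, with 6 called. Whether probes shared between alpha transcripts make these values dependent was not tested. A separate probe set that lists 15 alpha symbols, and so is no member, had 326 and 315 in vector and 315 and 337 in FOXC1 cells (log2 0.02 ± 0.09 SE). Its groups overlapped, and FOXC1 replicate 2 was again the highest. The lowest was FOXC1 replicate 1 (314.6), almost equal to vector replicate 2 (314.8). PCDHA2 had a second, dimmer probe set with a log2 change of 0.09 beside the 0.16 of the brighter, and neither passed.

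**Figure D4:**
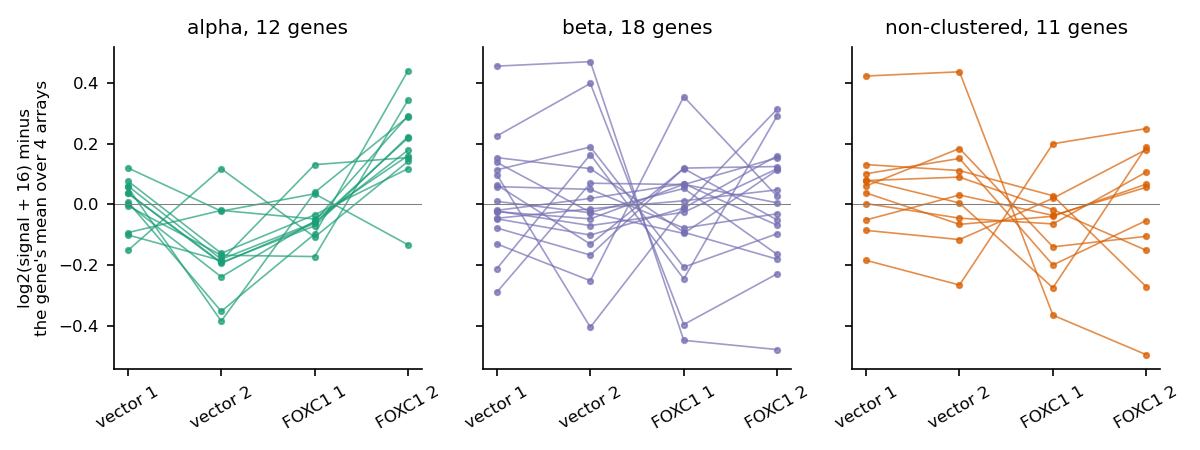
Signal of each protocadherin gene in the 4 arrays as log2(signal + 16) minus the gene's own mean, for 12 alpha, 18 beta and 11 non-clustered genes, each line joining the arrays of a gene. Most alpha lines dip at vector replicate 2 and end highest at FOXC1 replicate 2, while the beta and non-clustered lines follow no common course.

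The gamma array was represented by PCDHGB4 alone. Its signals were 416 and 469 in vector and 472 and 525 in FOXC1 cells. Both FOXC1 values lay above the vector values, the nearest pair almost touching, and the gene did not pass (log2 0.17 ± 0.08 SE, limma adjusted p = 0.144; 95% interval -0.01 to 0.34).

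Among the non-clustered genes the delta protocadherin PCDH18 changed most. Its signals were 327 and 330 in vector and 183 and 166 in FOXC1 cells. The vector arrays were almost equal, and both FOXC1 arrays lay far below them. PCDH18 fell 1.81-fold (log2 -0.86 ± 0.10 SE, limma adjusted p = 4.19e-07) and was called in every alternative fit that kept it. PCDH10, its neighbour on chromosome 4 among measured genes, had 341 and 353 in vector and 274 and 305 in FOXC1 cells and fell 1.19-fold (log2 -0.25 ± 0.09 SE, limma adjusted p = 0.0367). Without vector replicate 1, vector replicate 2 or FOXC1 replicate 1 it no longer passed (adjusted p = 0.106, 0.214 and 0.166). PCDH10 is known as a tumour suppressor candidate that recruits actin regulators. On the other side of PCDH18 the next measured gene, the cystine transporter SLC7A11, rose (log2 0.69), and NOCT beyond it rose too (log2 0.28), so of the measured genes next to PCDH18 the one on one side fell and the one on the other rose.

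PCDH7, a delta protocadherin known to bind protein phosphatase 1 and described in breast cancer metastasis, was the only non-clustered gene called higher in every alternative fit that kept it. Its signals were 331 and 312 in vector and 436 and 452 in FOXC1 cells, with a wide gap between the groups. The rise was 1.36-fold (log2 0.45 ± 0.08 SE, limma adjusted p = 0.000206). The 3 measured genes on either side of PCDH7 lay between log2 changes of -0.06 and 0.16 and did not pass.

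Of the 4 members on chromosome 13, PCDH20 fell, PCDH8 rose, and PCDH9 and PCDH17 did not pass. PCDH20 had 510 and 503 in vector and 474 and 382 in FOXC1 cells and fell 1.18-fold (log2 -0.24 ± 0.09 SE, limma adjusted p = 0.0434), a step that shrank to -0.09 without FOXC1 replicate 2. PCDH8, known from early embryonic cell sorting and from synapses, had 514 and 503 in vector and 554 and 621 in FOXC1 cells and rose 1.15-fold (log2 0.20 ± 0.08 SE, limma adjusted p = 0.0483). Neither gene passed when vector replicate 1, vector replicate 2 or FOXC1 replicate 2 was left out (adjusted p = 0.143, 0.228 and 0.292 for PCDH8, and 0.139, 0.102 and 0.455 for PCDH20). PCDH9 had 125 and 138 in vector and 107 and 110 in FOXC1 cells, without overlap, and did not pass (log2 -0.24 ± 0.12 SE, limma adjusted p = 0.121). PCDH17 had 649 and 603 against 615 and 663, which overlap (95% interval of the log2 change -0.12 to 0.18).

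PCDH1, a protocadherin of airway and other epithelia and the brightest member, had 834 and 883 in vector and 843 and 899 in FOXC1 cells (log2 0.02 ± 0.06 SE). The groups overlapped, and the 95% interval of the log2 change was -0.11 to 0.15. PCDH12, known from endothelium and placenta, had 257 and 248 against 244 and 277. The endothelial marker PECAM1 fell in the same arrays (log2 -1.65), while VWF, TEK and CDH5 did not pass. PCDH15, a tip link protein of inner ear hair cells, had 66.0 and 66.6 against 60.7 and 53.9, and PCDH19, known from epilepsy, had 114 and 107 against 85.7 and 124. None of the 4 passed. The 2 probe sets that list PCDH11X together with PCDH11Y, which are no members, had log2 changes of 0.16 and 0.10 and did not pass.

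**Figure D5:**
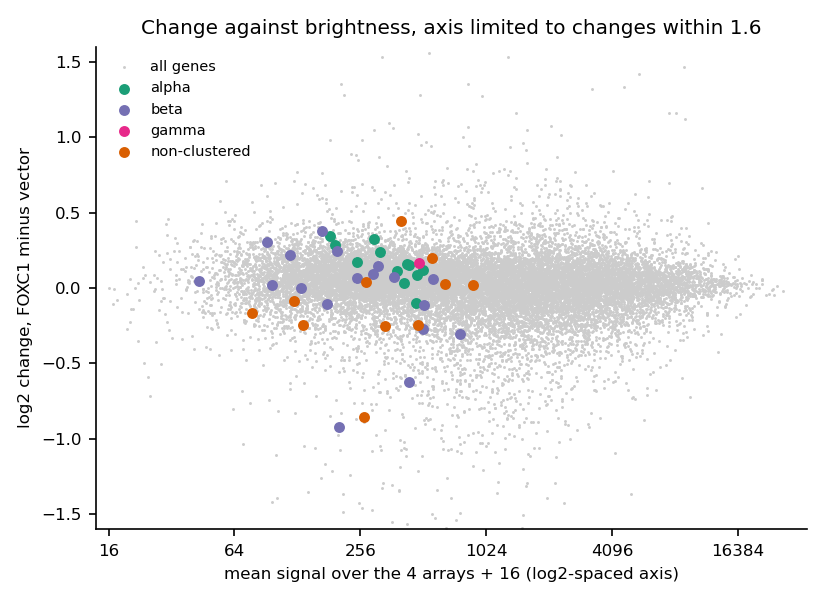
Log2 change, FOXC1 minus vector, against mean signal plus 16 over the 4 arrays on a log2-spaced axis, for all 18417 genes in grey and the protocadherins in colour by class; 70 genes with changes beyond 1.6 lie outside the axis. The protocadherins sit in the dim part of the array, up to a mean signal of 865.

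Genes that control the clustered protocadherins, from a list of chromatin and cohesin factors, moved in both directions. Of 23 measured 7 rose and 5 fell (52.2% called), with a median log2 change of 0.02. All 23 lay above the median of brightness, where 48.2% of genes were called, so the list's share was near its background. SMCHD1, a chromatin protein known to repress the clustered genes, rose from 4566 ± 76.6 to 6247 ± 1.35 (SD, n = 2), a 1.37-fold change. The methyltransferase gene EHMT1 rose 1.29-fold, and the zinc finger genes ZNF274 and WIZ, known from heterochromatin and chromatin looping, rose 1.13-fold each. The cohesin subunits RAD21 and STAG2 fell 1.16-fold and 1.14-fold. CTCF itself did not pass (log2 -0.07 ± 0.04 SE).

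Of 16 measured partners inside the cell 1 rose, 4 fell and 11 did not pass (31.2% called, median log2 change -0.05). Of all genes 31.4% were called, and 48.2% of those above the median of brightness, where 14 of the 16 lay. The kinase FYN fell 1.32-fold, CYFIP2 of the WAVE complex, an actin regulator that binds delta protocadherins, fell 1.25-fold, the focal adhesion kinase PTK2 fell 1.17-fold and ABI1 fell 1.08-fold, while WASF3 of the same complex rose 1.17-fold. Of 7 measured genes for shedding of the ectodomain and release of the cytoplasmic part, the proteases ADAM17 and ADAM10 fell 1.19-fold and 1.16-fold, and the gamma-secretase subunits PSEN2 and PSENEN rose 1.13-fold and 1.07-fold. Their median log2 change was -0.03. Called were 57.1% of the 7 genes, and 6 of the 7 lay above the median of brightness, where 48.2% of genes were called.

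Of 18 other large cadherins measured, among them FAT, CELSR, Dachsous and calsyntenin genes, 4 were called (22.2%), FAT1 higher (1.20-fold) and FAT4, CLSTN3 and CLSTN1 lower (1.21-fold, 1.14-fold and 1.11-fold). Among all genes 31.4% were called, and 16.1% of those no brighter than PCDH1. Of the 18, 7 lay below the 25th percentile of brightness, 7 between it and the median and 4 above the median. None of these 18 was called with a log2 change of at least 0.5, against 3 of the 42 protocadherins and 4.07% of all genes. The lists' difference was not tested. The median log2 change was 0.05.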

How the data were processed

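RNA from 2 vector and 2 FOXC1 samples of MDA-MB-231 cells was measured on Affymetrix gene arrays, with groups and replicates as labelled. The deposited values are intensity signals on a linear scale, which the authors made with PLIER in Affymetrix Expression Console, per the submitters' processing notes; its background and normalization options are not stated there. PLIER merges the probes of a probe set, so cross-binding between related genes stays in the signal. Probe sets were named from the platform annotation: 19460 of 33297 had 1 symbol, 1754 had several and were tested but not used as genes, and the rest had none.

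Signals were tested as log2(signal + 16) with limma 3.58.1 in R 4.3.3 (eBayes with a variance trend), with Benjamini-Hochberg adjustment over 21214 probe sets with a symbol. The offset shrinks the fold changes of dim probe sets. The residual degrees of freedom were 2 and the prior degrees of freedom 18.1, so the few arrays limit precision and the test leans on the spread of other genes. The fit was tested on simulated data. Described array by array were all called members, the 3 others with the largest change and the brightest of each class; from each list, called genes, at most 6 by size of change. Further members and neighbouring genes were chosen after their values were seen. The members and lists were chosen with earlier results of these data known.

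Alternatives covered the offset, filters on dim probe sets, normalization, variance moderation, the replicate block, arrays left out, the probe set per gene, the rows tested and the threshold. Gene order and promoter sequences came from RefSeq (GRCh38.p14). Coordinates are printed for the promoter windows only, since the array annotation names no build. The FOXC1 transcript was not analysed here.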

Additional observations from a re-analysis of the deposited data

How the results depend on the processing

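The main count of called protocadherins was 12 (7 clustered, 5 non-clustered). With probe sets above the 50th percentile of brightness it was 0, since only PCDH1 was left (0 of 1 non-clustered, and no clustered gene left to count). Over all rows of the table it was 6 (4 clustered, 2 non-clustered), and with a log2 change of at least 0.5 it was 3 (2 and 1). The clustered count was 4 above the 25th percentile, where 17 genes were left, and 4 after quantile normalization. The non-clustered count was 2 without the variance trend and 3 with centring over named probe sets, an alternative chosen after seeing the data. Leaving out 1 array in turn gave 6 to 15 in all, 4 to 11 clustered and 2 to 4 non-clustered, the lone array of a group being assumed to vary like the other group. Other alternatives gave 8 to 14 in all. The sign turned for PCDHA10 without vector replicate 2 (-0.00136), and for PCDH1 with median centring (-0.0215), without vector replicate 1 (-0.0208) and without FOXC1 replicate 2 (-0.0261); neither was called. Over the 4 arrays left out in turn, PCDHA10 reached at most 0.24 and PCDH1 at most 0.0663. Apart from the filters and fits stated, the cause was not tested. The replicate block gave 14 calls (9 clustered, 5 non-clustered), 7 higher and 7 lower, among them all 12 of the main count. Deviations of same-numbered arrays correlated at -0.0206 over all rows. That value cannot tell whether same-numbered arrays shared a culture or a day, which the labels do not state. PCDHB2, PCDHB16, PCDHB5, PCDH18 and PCDH7 were called in each of the 16 alternative fits that kept them. The filter at the 50th percentile kept none of them, and the filter at the 25th percentile also dropped PCDHB2. The median over all genes was 0.03 as deposited, -0.01 with median centring, 0.06 with centring over named probe sets and 0.003 after quantile normalization. Dim signal limits the result: 18 of 42 members lay below the 25th percentile, and the widest 95% interval of an uncalled member reached 0.385 either side of its log2 change.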
